A study of Mus musculus with 12 samples.

Results

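Metallothioneins and 3 genes that act with them were followed in gastrocnemius, the main calf muscle, of male mice. The members were chosen by gene symbol, as every probe set (a group of short probes that reads 1 transcript) annotated to Mt1, Mt2, Mtf1, Slc30a1 or Slc39a14 and to no other gene. They gave 14 probe sets for 5 genes, of 18194 genes with a probe set of their own. The symbols were picked with the difference between the groups already known, so that difference is described for these genes and not tested. Of the transporters, Slc30a1 is a zinc exporter, whereas Slc39a14 is an importer, and Mtf1 encodes a transcription factor, so the set is wider than exporters.

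Each of the 12 arrays held RNA of a different animal. The animals came from generation 37 of a breeding experiment that selected for high voluntary wheel running, and were 84 days old on average (79 to 86 days). The mini-muscle group was 6 mice of the selected line 3, which carry an inherited reduction of hindlimb muscle mass, with both gastrocnemius muscles of an animal pooled. The regular-muscle group was 6 mice of line 8, also selected for running, with the muscle of 1 limb per animal. Each group is 1 line, and muscle phenotype, line and pooling of limbs cannot be told apart. No treatment is given in the labels. The files give 1 MAS5 intensity per probe set and array. The values below are log2 intensities. A difference is the mini-muscle mean less the regular-muscle mean, with the standard error (SE) of a limma fit. Precision is limited by the number of arrays, 6 in each group.

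Metallothioneins are small cysteine-rich proteins that bind zinc and copper, and they buffer free zinc in the cell. When zinc rises, the zinc-finger factor encoded by Mtf1 binds metal response elements in the promoters of Mt1, Mt2 and Slc30a1 and raises their transcription. Slc30a1 then moves zinc out across the plasma membrane, and Slc39a14 carries zinc, and also iron and manganese, into cells. Glucocorticoids, inflammatory cytokines and muscle wasting are also known to raise metallothionein transcripts. In bulk muscle, fewer cells of a type and less RNA per cell cannot be told apart.

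The promoter windows of Mt1, Mt2 and Slc30a1 are shown because the bright probe sets of Mt1 and Mt2 were high on the same 2 regular-muscle arrays, as was a dim probe set of Slc30a1, though neither its brighter probe set nor the dim one of Mt1 shared this pattern. They are RefSeq sequences of build GRCm38.p6, plus strand, from 250 bases before the listed transcription start to 50 after it. Of the 5 genes, 4 had a window in that table; Slc39a14 had no entry. Capitals mark the core of the metal response element, searched as TGCACNC or TGCGCNC on both strands.
Mt1 at chr8:94178839-94179138: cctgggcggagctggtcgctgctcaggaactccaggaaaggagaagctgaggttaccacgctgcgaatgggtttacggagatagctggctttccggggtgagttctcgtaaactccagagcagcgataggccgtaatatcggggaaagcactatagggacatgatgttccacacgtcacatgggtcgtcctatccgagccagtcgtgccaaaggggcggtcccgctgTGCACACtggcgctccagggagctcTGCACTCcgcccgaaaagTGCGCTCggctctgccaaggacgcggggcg
Mt2 at chr8:94172368-94172667: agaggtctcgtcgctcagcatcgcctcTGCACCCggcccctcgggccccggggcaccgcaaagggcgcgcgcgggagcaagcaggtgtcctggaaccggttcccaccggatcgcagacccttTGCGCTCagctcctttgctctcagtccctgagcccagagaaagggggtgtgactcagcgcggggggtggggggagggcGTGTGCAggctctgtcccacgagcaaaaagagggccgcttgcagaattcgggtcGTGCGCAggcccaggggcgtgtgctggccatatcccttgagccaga
Slc30a1 at chr1:191906531-191906830: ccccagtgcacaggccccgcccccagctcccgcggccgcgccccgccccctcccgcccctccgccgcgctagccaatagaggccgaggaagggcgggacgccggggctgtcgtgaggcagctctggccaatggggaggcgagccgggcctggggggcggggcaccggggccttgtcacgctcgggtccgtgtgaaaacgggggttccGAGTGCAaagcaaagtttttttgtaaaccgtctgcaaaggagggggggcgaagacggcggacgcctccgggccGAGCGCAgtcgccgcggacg
The Mt1 window held 3 cores, the Mt2 window 4 and the Slc30a1 window 2, and the Mtf1 window held 0. The listed start of Mt1 may lie upstream of the commonly used one, so its count holds for this window and not for the promoter as a whole. Of the 32851 windows in the table, 25.7% held at least 1 core, 7.11% at least 2, 1.97% at least 3 and 0.517% at least 4. The Mt2 and Slc30a1 windows each held 1 antioxidant response element core, searched as TGACNNNGC on both strands, as did 12.4% of all windows at least once. A match describes the letters and does not show that a factor binds there.

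Both metallothioneins were higher on average in mini-muscle, and their levels split the regular-muscle animals into 4 low and 2 high. Mt1, read by a probe set of the _s_at class, whose probes can match more than 1 transcript of a family, ranged from 11.61 to 12.01 in mini-muscle (median 11.85). In regular muscle it ranged from 10.45 to 12.51 (median 10.64). Replicates 3 and 4 of regular muscle lay at 11.49 and 12.51, and the other 4 lay between 10.45 and 10.71. The highest Mt1 value of all arrays was thus on a regular-muscle array, and the groups overlapped. The means were 11.83 ± 0.16 (SD, n = 6) and 11.04 ± 0.82 (SD, n = 6). The difference was 0.79 (SE 0.26), or 1.73-fold.

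Mt2, whose gene is a close paralogue of Mt1 and lies beside it on chromosome 8, showed the wider gap. It ranged from 11.68 to 12.62 in mini-muscle (median 11.99) and from 9.61 to 12.14 in regular muscle (median 10.25). Again regular-muscle replicates 3 and 4 stood above the rest, at 11.55 and 12.14 against 9.61 to 10.29. The means were 12.05 ± 0.35 (SD, n = 6) and 10.60 ± 1.01 (SD, n = 6), a difference of 1.45 (SE 0.33) or 2.74-fold. Mt2 on regular-muscle replicate 3 was below every mini-muscle array, while replicate 4 fell inside the mini-muscle range. Of the 14 probe sets of the 5 genes, 0 had groups that did not overlap, where the share over all 34958 single-gene probe sets was 5.46%.

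**Figure D1:**
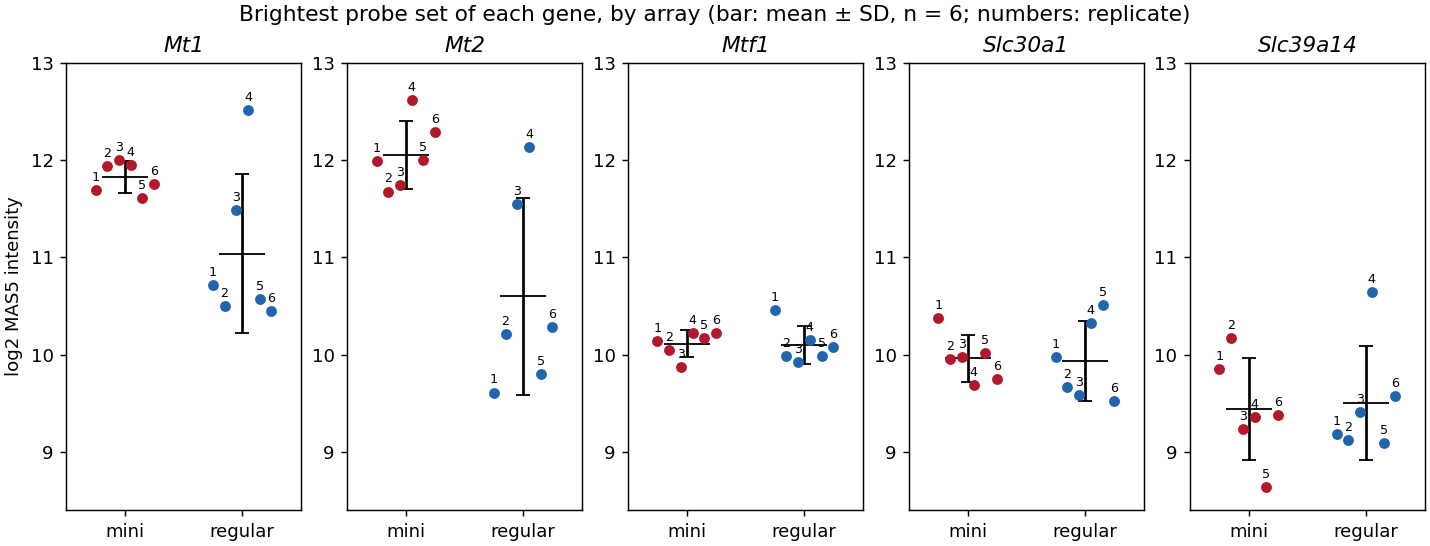
Log2 MAS5 intensity of the brightest probe set of each gene on every array, with mini-muscle in red and regular muscle in blue, replicate numbers above the points, and bars for the mean and SD of 6 arrays. For Mt1 and Mt2 regular-muscle replicates 3 and 4 sit at or near the mini-muscle arrays, whereas the other 4 sit at 10.71 or lower for Mt1 and 10.29 or lower for Mt2.

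Because replicates 3 and 4 stood apart, the values were also computed without them, a choice made after the levels were seen. Over 6 mini-muscle and 4 regular-muscle arrays the Mt1 difference was 1.27 (2.41-fold) and the Mt2 difference 2.07 (4.21-fold). Leaving out the 2 arrays that are high for these genes widens the gap by construction. The Mt1 values of the remaining 4 regular-muscle arrays had an SD of 0.12, compared with 0.82 over all 6. On the linear scale, replicates 3 and 4 together were 2.72-fold above the other 4 for Mt1 and 3.64-fold for Mt2, as ratios of geometric means. These ratios come from arrays picked for their level and have no test.

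The spread of the metallothioneins among regular-muscle animals was wide for this tissue. In regular muscle the SD of Mt1 exceeded that of 98.4% of the 9097 genes above the dim limit (log2 8.56, the median of the gene means), and the SD of Mt2 exceeded that of 99.1%. In mini-muscle the Mt1 SD exceeded that of 27.0% of genes and the Mt2 SD that of 80.4%. The median SD over all these genes was 0.22 in mini-muscle and 0.23 in regular muscle. These percentiles describe the arrays and were not tested.

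Within a group, covariation of Mt1 with the other members does not use the contrast between groups, so it was tested with exact permutation tests, two-sided, over the 720 pairings of 6 arrays, in 8 relations. In regular muscle Mt1 and Mt2 had r = 0.91 (exact p = 0.033, adjusted p = 0.24) and rho = 0.43 (exact p = 0.42, adjusted p = 0.92). Without replicates 3 and 4, the arrays farthest from the Mt1 median, r was -0.96 over 4 arrays, so the positive relation rests on those arrays. In mini-muscle r was -0.07 (exact p = 0.88, adjusted p = 0.97) and rho -0.14 (exact p = 0.80, adjusted p = 0.92), and r was 0.12 without replicates 3 and 5.

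**Figure D2:**
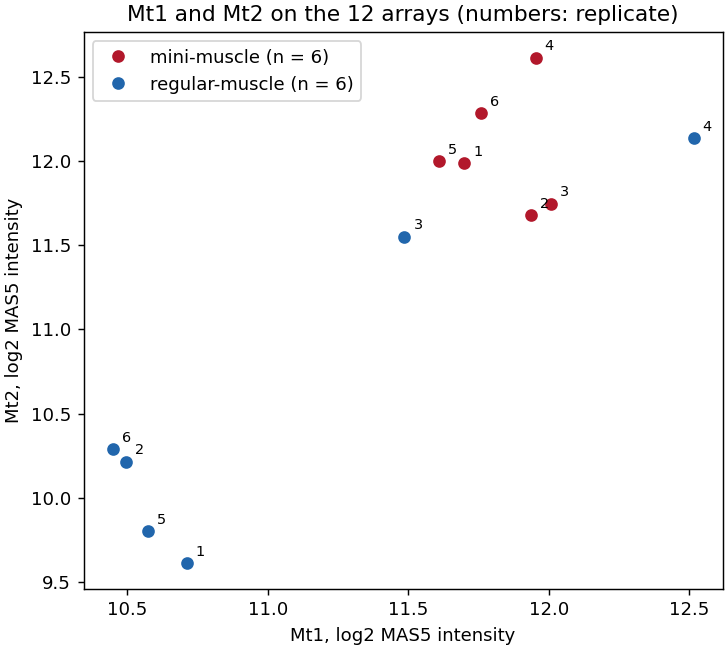
Mt1 (x axis) against Mt2 (y axis), both as log2 MAS5 intensity, with 1 point per array and its replicate number. 4 regular-muscle arrays form the lower left set, and regular-muscle replicates 3 and 4 lie beside the 6 mini-muscle arrays.

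Mt1 and Slc39a14 in regular muscle had r = 0.87 (exact p = 0.061, adjusted p = 0.24) and rho = 0.37 (exact p = 0.50, adjusted p = 0.92), and r was -0.53 without replicates 3 and 4. In mini-muscle the same pair had r = 0.37 (exact p = 0.46, adjusted p = 0.74) and rho = 0.03 (exact p = 1.0, adjusted p = 1.0), and r = 0.06 without replicates 3 and 5. Mt1 and Slc30a1 had r = 0.32 (exact p = 0.57, adjusted p = 0.76) and rho = 0.43 (exact p = 0.42, adjusted p = 0.92) in regular muscle, with r = 0.51 without the farthest arrays. In mini-muscle they had r = -0.44 (exact p = 0.41, adjusted p = 0.74) and rho = -0.54 (exact p = 0.30, adjusted p = 0.92), with r = -0.62 without them. For Slc30a1 r was thus positive in regular muscle and negative in mini-muscle, and the difference was not tested. Mt1 and Mtf1 had r = 0.02 (exact p = 0.97, adjusted p = 0.97) and rho = 0.14 (exact p = 0.80, adjusted p = 0.92) in regular muscle, with r = 0.81 over the 4 low arrays. In mini-muscle they had r = -0.55 (exact p = 0.27, adjusted p = 0.72) and rho = -0.26 (exact p = 0.66, adjusted p = 0.92), with r = -0.16 without replicates 3 and 5. None of the 8 relations passed after adjustment.

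The factor that acts on the metallothioneins was at nearly the same level in both groups at its 2 brighter probe sets. The brightest probe set of Mtf1 ranged from 9.87 to 10.22 in mini-muscle (median 10.15) and from 9.92 to 10.45 in regular muscle (median 10.03), a difference of 0.02 (SE 0.12). The second differed by -0.16 (SE 0.17). Regular-muscle replicates 3 and 4, high for the metallothioneins, had 9.92 and 10.15 at the brightest probe set, the lowest and the second highest of their group. The 3 remaining probe sets of Mtf1 lay below the dim limit and did not share a direction. The probe set ranked 4 in brightness was at 5.37 ± 1.08 (SD, n = 6) in mini-muscle and 7.42 ± 0.51 (SD, n = 6) in regular muscle (-2.05, SE 0.58), and its groups overlapped.

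The zinc exporter Slc30a1 gave different answers at its probe sets. The brighter one ranged from 9.68 to 10.38 in mini-muscle (median 9.96) and from 9.52 to 10.51 in regular muscle (median 9.82), and differed by 0.03 (SE 0.18). The dimmer one, with a mean of 7.91 that lies below the dim limit, ranged from 8.16 to 9.03 in mini-muscle (median 8.63) and from 4.17 to 8.84 in regular muscle (median 7.61). Its difference was 1.40 (SE 0.59). On this dimmer probe set regular-muscle replicates 3 and 4 were the 2 highest of their group, at 8.59 and 8.84 against 4.17 to 7.67, as they were for the metallothioneins. The other 4 regular-muscle arrays lay below the dim limit, where values were treated as uncertain. Which of the 2 probe sets follows the Slc30a1 transcript better was not tested.

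The importer Slc39a14 varied widely among animals of both groups. Its brightest probe set ranged from 8.64 to 10.17 in mini-muscle (median 9.37) and from 9.09 to 10.64 in regular muscle (median 9.29), and differed by -0.06 (SE 0.27). Its SD of 0.53 in mini-muscle exceeded that of 94.98% of genes, and its SD of 0.59 in regular muscle that of 95.8%. The value of 10.64 belonged to regular-muscle replicate 4, which was also the highest for Mt1 and the highest of its group for Mt2, while replicate 3 lay at 9.41 among the others. The second probe set above the dim limit differed by -0.15 (SE 0.19) and put replicate 4 at 8.96, near the group median of 8.99. The probe sets ranked 3 and 4 were dim, with means of 5.06 and 4.84, and differed by -1.40 (SE 0.62) and -0.20 (SE 0.73).

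Of the 14 probe sets, 7 had a mean above the dim limit, at least 1 for each gene. The second probe set of Mt1, at a mean of 6.18, ran against the first. It was lowest in regular muscle on replicates 3 and 4, at 3.69 and 3.68 against 6.89 to 7.79 on the other 4, and differed between groups by 0.15 (SE 0.82). The mean of all Mt1 probe sets therefore gave a difference of 0.47 in place of 0.79.

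**Figure D3:**
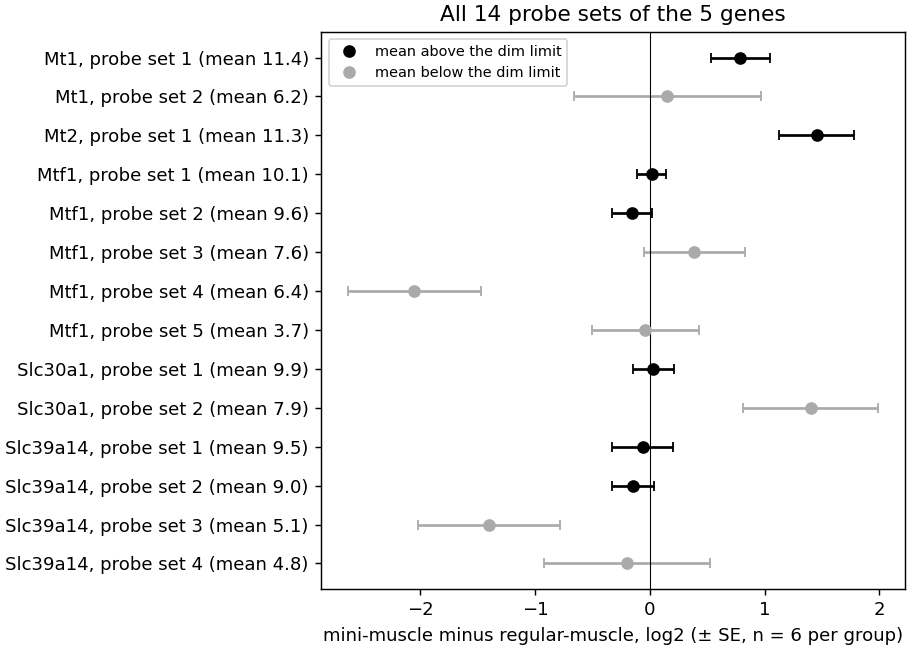
Difference between mini-muscle and regular muscle on the log2 scale, with SE, for all 14 probe sets, where black points are above the dim limit and grey points below it. The brightest probe sets of Mt1 and Mt2 lie at 0.79 and 1.45, and those of Mtf1, Slc30a1 and Slc39a14 lie within 0.07 of 0.

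The genes most like each member were taken by Pearson's r over 12 arrays after each gene's group mean was subtracted, among 9092 other genes, as a description. The arrays share their scaling, and r over all genes had a median near 0 for each member. The highest of 9092 values are high in part because they were picked, so that median is not a yardstick for them. Closest to Mt1 were Lmcd1, a LIM-domain protein of muscle (0.94), Ddo, D-aspartate oxidase (0.93), and Bdh1, a mitochondrial enzyme of ketone body use (0.92). Without regular-muscle replicates 3 and 4 these values were 0.08, 0.45 and 0.79. Lmcd1 was at 12.15 and 12.84 on those arrays, at 11.11 to 11.49 on the other regular-muscle arrays and at 13.35 to 13.66 in mini-muscle. Closest to Mt2 were Nfil3, a bZIP transcription factor (0.94), Fgl2, a fibrinogen-like protein (0.92), and Krt18, a keratin (0.92), with 0.84, 0.65 and 0.48 without those arrays. Nfil3 lay at 9.79 and 9.90 on regular-muscle replicates 3 and 4, above the mini-muscle range of 8.57 to 9.40.

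For the other members, r was 0.72 or higher also without those arrays. The genes were picked for a high r over all 12 arrays, and 10 of these arrays were used again. A high r without the others is therefore partly fixed by that choice. Closest to Mtf1 were Zxdc, a zinc-finger protein gene (0.95), Gm5113 (0.90) and Tecr, an enzyme of very long chain fatty acid synthesis (0.88), with 0.95, 0.89 and 0.94 without them. Closest to Slc30a1 were 9530057J20Rik, Pgap4 and Rlf, each at 0.88, with 0.85, 0.86 and 0.86 without them. Closest to Slc39a14 were Pld1, a phospholipase D (0.93), Hrob (0.85) and 1600014C10Rik (0.84), with 0.92, 0.91 and 0.72 without them.

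Of 14 other zinc transporter genes above the dim limit, 3 passed the test. They were tested in a limma fit over 9097 genes with Benjamini-Hochberg adjustment, in which 26.7% of all genes passed, 14.9% higher and 11.8% lower in mini-muscle. Mt3 and Mt4, the other metallothioneins, were below the dim limit and not tested. Of 7 kept genes of the exporter list (10 listed), 0 rose, 2 fell and 5 did not pass, with a median difference of -0.07 against 0.03 over all genes. Slc30a9, a zinc transporter of mitochondria, fell by 0.34 (SE 0.08, limma adjusted p = 0.0046). Slc30a4, which loads zinc into vesicles, fell by 0.37 (SE 0.12, limma adjusted p = 0.025). With arrays centred on their medians neither passed (limma adjusted p = 0.089 and 0.10), and Slc30a4 was also lost in 3 of 12 fits that left out 1 array and without regular-muscle replicates 3 and 4 (limma adjusted p = 0.05003).

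Of 7 kept genes of the importer list (13 listed), 1 rose and 6 did not pass, with a median of 0.16. Slc39a10, a plasma membrane importer, rose from 9.33 to 9.96 (difference 0.63, SE 0.15, limma adjusted p = 0.0042), and its groups did not overlap. The mean of all its probe sets missed the threshold (limma adjusted p = 0.053).

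**Figure D4:**
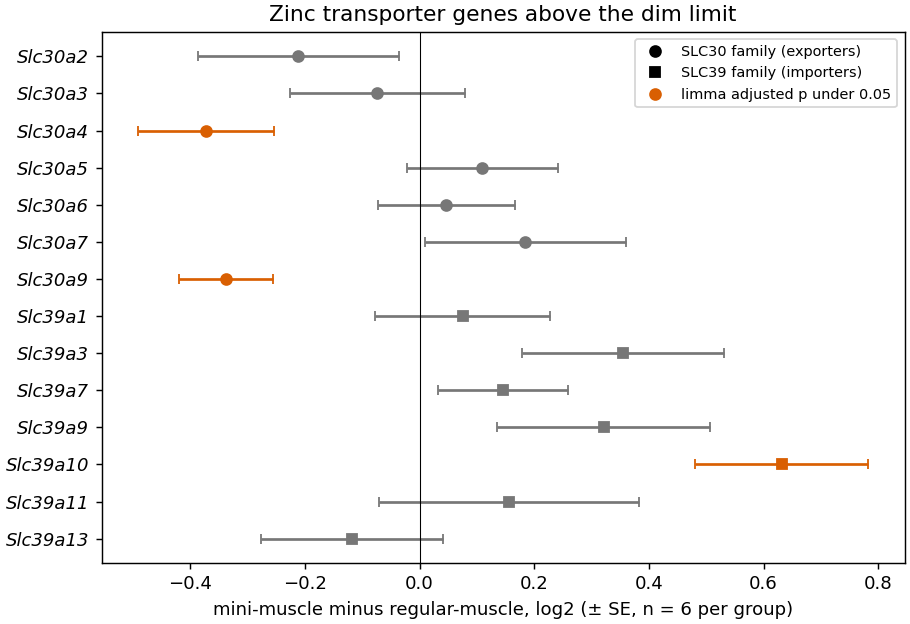
Difference between mini-muscle and regular muscle on the log2 scale, with SE, for the 14 zinc transporter genes above the dim limit that are not members, with circles for the exporter list and squares for the importer list. Orange marks the genes with a limma adjusted p under 0.05: Slc30a4 and Slc30a9 to the left of 0 and Slc39a10 to the right.

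Of 13 kept genes of copper handling 1 rose, 0 fell and 12 did not pass (median -0.06), beside the 14.9% of all genes that rose and 11.8% that fell. Not passing does not show that a gene was unchanged. Cox19, a factor in the assembly of cytochrome oxidase, rose by 0.50 (SE 0.13, limma adjusted p = 0.0062). Of 12 kept iron genes 3 rose, 1 fell and 8 did not pass (median -0.04), where 14.9% of all genes rose and 11.8% fell. Slc40a1, the iron exporter ferroportin, was 2.85-fold higher (log2 1.51, SE 0.13, limma adjusted p = 1.3e-07) with 1.503 at its second probe set. Aco1, iron regulatory protein and cytosolic aconitase, rose by 0.40 (SE 0.10, limma adjusted p = 0.0058), and Fth1, the ferritin heavy chain, fell by 0.23 (SE 0.06, limma adjusted p = 0.0058). The Fth1 call was lost with arrays centred on their medians (limma adjusted p = 0.19).

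Lists of responses known to raise metallothioneins held genes that rose and, for glucocorticoids, genes that fell. Over all 9097 genes 14.9% rose and 11.8% fell, and the list counts were not tested against those shares. Of 21 glucocorticoid-responsive genes 5 rose, 4 fell and 12 did not pass (median 0.20), and without regular-muscle replicates 3 and 4 there were 7 rises and 2 falls. Those arrays were left out for their metallothionein levels and were also high for this list. Leaving them out therefore tilts the counts toward rises by construction. Fbxo32, a ubiquitin ligase of muscle atrophy, was 2.06-fold higher (log2 1.04, SE 0.19, limma adjusted p = 3.7e-04), although its 2 other probe sets, also bright, gave -0.26 and -0.17 and the mean of the 3 did not pass (limma adjusted p = 0.52). Dusp1, a phosphatase of MAP kinases, rose by 0.82 (SE 0.17, limma adjusted p = 0.0012), and the kinase Sgk1 fell by 0.48 (SE 0.10, limma adjusted p = 0.0013). The mean level of this list was 11.97 on both regular-muscle replicates 3 and 4, above the 11.52 to 11.88 of the other regular-muscle arrays and inside the mini-muscle range of 11.82 to 12.19, and its part in the metallothionein levels was not tested.

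Of 6 kept genes of the interleukin-6 and acute-phase list (12 listed) 2 rose and 4 did not pass (median 0.12), where 14.9% of all genes rose. With no filter on dim genes, 3 of the 12 rose and 0 fell. Junb, a subunit of the AP-1 transcription factor, was at 10.01 in mini-muscle and 8.01 in regular muscle (limma adjusted p = 0.0011). The latter lies below the dim limit, so the size of the rise is uncertain, and an offset of 64 gave 1.68 on the log2 scale. Stat3, the transcription factor of this pathway, rose by 0.56 (SE 0.16, limma adjusted p = 0.016), while 2 further probe sets bright enough to be kept gave 0.46 and -0.58 and the mean of all did not pass (limma adjusted p = 0.86). Regular-muscle replicates 3 and 4 had mean levels of 9.70 and 10.08 for this list, and the remaining regular-muscle arrays had 9.88 to 10.02. Of 8 kept targets of the stress factor Nrf2, 4 rose and 4 did not pass (median 0.27), beside the 14.9% of all genes that rose. Txnrd1, thioredoxin reductase, rose by 0.36 (SE 0.10, limma adjusted p = 0.013), although its second probe set gave -0.05 and the mean of all did not pass (limma adjusted p = 0.14). Gsr, glutathione reductase, rose by 0.46 (SE 0.13, limma adjusted p = 0.013) and Osgin1 by 0.62 (SE 0.19, limma adjusted p = 0.022, lost in 2 of 12 fits without 1 array). The mean level of the Nrf2 list was 10.444 and 10.417 on regular-muscle replicates 3 and 4, inside the 10.386 to 10.455 of the other regular-muscle arrays.

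Markers of the tissue and of other cell types were read beside these values, in the fit where 14.9% of all genes rose and 11.8% fell. The 6 muscle fibre markers, such as Acta1 and Ckm, were among the bright genes in both groups, with mean levels of 17.06 to 17.24 on mini-muscle and 17.17 to 17.48 on regular-muscle arrays. Of these 6, 2 fell, Tnnt3 by 0.29 and Actn3 by 0.36, which encode fast-fibre troponin T and alpha-actinin, and 4 did not pass. Of 5 fibroblast markers 3 fell and 0 rose, with mean levels of 11.17 to 11.85 in mini-muscle and 11.80 to 12.43 in regular muscle. Of 3 kept macrophage markers 2 fell, and of 4 endothelial markers 1 rose. Of 2 kept adipocyte markers, Fabp4 rose by 0.31 (limma adjusted p = 0.031), while Adipoq differed by -0.41 and did not pass. The 1 kept Schwann cell marker and the 1 kept satellite cell marker did not pass. The 4 neutrophil and the 4 erythroid markers were all below the dim limit. On regular-muscle replicates 3 and 4 the fibroblast list was at 12.31 and 11.88, inside the range of the other 4 (11.80 to 12.43), and the macrophage list at 10.42 and 9.94 against 9.80 to 10.35. The part of these cells in the metallothionein levels was not tested.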

How the data were processed

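The values are linear probe set intensities that the authors deposited, and the submitters' processing notes name MAS5. The sources used here give no version or settings. MAS5 scales each array to a common target. In the deposited intensities the mean, trimmed of 2% of probe sets at each end, was 800.0 on every array, and the array medians were 211.9 to 275.2. Total RNA was extracted with Trizol and 5 µg was labelled, per the labels' protocols.

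Intensities were taken to log2 with no offset. Of 45101 probe sets, 34958 name 1 gene in the platform annotation, 932 several and 9211 none. Of the first, 34754 matched a RefSeq gene by identifier, and 0 symbols changed. A gene was represented by its brightest probe set on average, and the 9097 genes at or above the median of gene means (log2 8.56) were tested with limma 3.58.1 (R 4.3.3, two-sided, eBayes with an intensity trend, Benjamini-Hochberg adjustment). SEs of members come from the same fit over all single-gene probe sets. Correlations used exact permutation tests in Python 3.11.15, adjusted over 8 relations. On simulated data (9097 genes, 200 changed) limma called 65% of genes changed 1.5-fold and 83% of those changed 2-fold, with 10 false among 158 calls. The simulated noise was independent between genes, and the changed share was far below the 26.7% called in the data. These rates therefore need not hold for the real arrays.

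Groups come from the labels' titles, and replicate numbers only name arrays. The members and lists were chosen with earlier results of these data known. Named genes are all members, up to 3 called genes per list, by smallest adjusted p, and the 3 genes most like each member.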

Additional observations from a re-analysis of the deposited data

Results flagged for a closer look

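Of the 28 sets of 6 arrays formed by 14 probe sets and 2 groups, 2 held an array far from the rest of its group, where chance gives about 1 in 20. At the brightest probe set of Slc39a14, regular-muscle replicate 4 was the highest at 10.64, and the next array was at 9.57. At the third, dim probe set of Slc39a14, mini-muscle replicate 4 was the highest at 5.68, and the next array was at 4.32.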

How the results depend on the processing

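Results were recomputed under quantile normalization, arrays centred on their medians, an offset of 64, no filter on dim genes, the brightest 33.3% of genes, the mean over a gene's probe sets, no intensity trend, and without each array; leaving out regular-muscle replicates 3 and 4 was added after the data were seen. Of 297 alternative values, 268 stayed within 1 SD or 1.5 times of the main value or on the same side of the threshold. Some of these could not move. Mt3 and Mt4 were tested only with no filter on dim genes, so their count was fixed at 0 elsewhere. Mt2 has 1 probe set, so the mean over probe sets leaves it unchanged. Leaving out 1 of 6 arrays cannot shift the difference of a member by 1 SD at the same probe set. The member values without 1 array were therefore bound to stay within 1 SD. The count of 268 is thus not a measure of stability. Without 1 array the Mt1 difference lay between 0.67 and 1.08, the Mt2 difference between 1.25 and 1.76, that of Mtf1 between -0.02 and 0.09, that of Slc30a1 between -0.05 and 0.15 and that of Slc39a14 between -0.21 and 0.16. The upper ends for Mt1, Mt2 and Slc39a14 came without regular-muscle replicate 4. With the mean of all probe sets, Mtf1 differed by -0.37 and Slc30a1 by 0.72, since dim probe sets then enter. The 2426 genes called in all became 1543 with the mean of all probe sets (862 higher, 681 lower) and 2145 to 2396 without 1 array. With that mean, 0 zinc importers, 5 glucocorticoid-responsive genes, 1 interleukin-6 gene and 2 Nrf2 targets were called. With arrays centred on their medians, 0 zinc exporters and 2 iron genes were called. Over the brightest genes, 0 zinc importers and 1 interleukin-6 gene were called, with fewer genes tested. Without regular-muscle replicates 3 and 4, 1 zinc exporter was called. Without 1 array, 1 to 2 zinc exporters, 1 to 2 copper genes and 2 to 4 Nrf2 targets were called; the lowest counts came without mini-muscle replicate 3 or regular-muscle replicates 5 or 6 for exporters, and without mini-muscle replicates 4 or 6 for Nrf2 targets. Copper reached 2 without mini-muscle replicates 1 or 2 or regular-muscle replicate 1. Of the correlations of Mt1, none passed under any setting and several changed sign: with centred arrays, 0.51 with Mt2 and 0.18 with Mtf1 in mini-muscle and -0.13 with Mtf1 in regular muscle; with the mean of all probe sets, 0.44 with Mt2, 0.14 with Slc30a1 and 0.91 with Mtf1 in mini-muscle, and -0.80 with Mt2, -0.56 with Slc30a1 and -0.16 with Mtf1 in regular muscle. The cause was not tested. No paired analysis was possible because each array held a different animal and the groups came from different lines. The dim limit leaves 7 of 14 member probe sets. It is the median of gene means and not a limit of detection, and values below it were treated as uncertain.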
